A study of Mus musculus with 4 samples.

Results

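The regions described here are the places in the genome where each of 4 ATAC-seq libraries had one of its 500 strongest peaks. ATAC-seq uses the Tn5 transposase to cut and tag accessible DNA, and a peak marks a stretch with more cuts than its surroundings. Peaks on chromosomes 1 to 19 and X were ranked within each library by their −log10 q, overlapping peaks (1 bp or more) were joined across libraries, and 346 of the 55907 regions called in all 4 libraries held a top-500 peak in each. Members were therefore chosen by their −log10 q values, and those values are given as a description. The cells were of the iMGT-Myh6-eGFP-MEF line, mouse embryonic fibroblasts that express Mef2c, Gata4 and Tbx5 (MGT) when doxycycline is added and that carry an eGFP reporter named for the cardiac gene Myh6. All libraries came from day 1 after MGT induction with 1 μg/mL doxycycline, so no library shows cells without MGT. A pair of libraries had a control siRNA (siControl) and a pair had an siRNA against Chst7 (siChst7), a sulfotransferase of chondroitin sulfate synthesis. The lists held between 66165 and 75696 peaks, fewest in siChst7 replicate 2.

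As background, the strongest peaks of an accessibility assay mix several kinds of sequence. Promoters of constantly used genes are kept free of nucleosomes by factors such as NF-Y, which binds the CCAAT box, and SP and ETS factors. Sequences present in many copies, such as satellite DNA, ribosomal RNA genes, tandem arrays and nuclear copies of mitochondrial DNA, can collect reads of all copies where the assembly holds few of them. Enhancers, which lie away from promoters and carry cell-type programmes, usually have lower and more variable peaks.

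The 346 members were split by position and shape. Gene-end members, 249 of them (72%), lay within 1 kb of an end of an annotated gene, compared with 27.8% of all regions called in the 4 libraries. Another 29 members lay away from gene ends and carried at least 1 sign of a repeat or mitochondrial copy: 22 were narrow (each peak at most 2 times the narrowest peak of its library), 8 began within 200 kb of the first peak of their chromosome, and 5 had a fold enrichment in every library of at least 2 times the 99th percentile of gene-end regions. Members with a sign made up 8.38% of all members, near the 6.7% of all regions called in the 4 libraries. The remaining 68 members lay away from gene ends without such a sign (19.7%, against 65.5% of those regions). No genome sequence was at hand, so repeats were not identified by sequence and the signs are descriptions of shape and place.

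The windows below, from 250 bases before to 50 bases from an annotated start (RefSeq, GRCm38.p6, the assembly of mm10), are shown because most members hold an annotated start and because a short sequence, CCAAT, was more frequent in them than in weaker promoters. The first 5 belong to the highest gene-end members that hold an annotated start, by mean rank; for Gm40371 and for the pair BC005624 and Usp20, 1 start is shown of those in the region. Hspa5 and Tmx2 were added after their values were seen, for the number of CCAAT boxes. Each is printed 5′ to 3′ on the strand of the gene. Capitals mark CCAAT (NF-Y), GGGCGG (SP and KLF), CCGGAAG (ETS), GCATGCGC (NRF1), TGANTCA (AP-1) and TGACGTCA (CRE) on either strand, matches that share bases included; in Hspa5 a CCAAT and a TGANTCA share 1 base.

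Gm40371: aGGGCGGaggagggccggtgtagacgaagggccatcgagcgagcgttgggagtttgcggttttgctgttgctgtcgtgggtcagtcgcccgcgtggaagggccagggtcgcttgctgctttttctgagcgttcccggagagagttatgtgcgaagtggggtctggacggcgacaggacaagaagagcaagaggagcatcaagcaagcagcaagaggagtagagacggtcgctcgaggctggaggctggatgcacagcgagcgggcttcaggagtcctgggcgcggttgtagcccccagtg
Oaz1: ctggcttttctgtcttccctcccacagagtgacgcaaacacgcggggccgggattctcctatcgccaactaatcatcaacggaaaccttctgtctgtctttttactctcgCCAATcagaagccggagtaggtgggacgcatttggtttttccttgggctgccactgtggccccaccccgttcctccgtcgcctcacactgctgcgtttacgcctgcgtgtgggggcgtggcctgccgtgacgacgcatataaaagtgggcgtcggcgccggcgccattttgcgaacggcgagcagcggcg
Gna12: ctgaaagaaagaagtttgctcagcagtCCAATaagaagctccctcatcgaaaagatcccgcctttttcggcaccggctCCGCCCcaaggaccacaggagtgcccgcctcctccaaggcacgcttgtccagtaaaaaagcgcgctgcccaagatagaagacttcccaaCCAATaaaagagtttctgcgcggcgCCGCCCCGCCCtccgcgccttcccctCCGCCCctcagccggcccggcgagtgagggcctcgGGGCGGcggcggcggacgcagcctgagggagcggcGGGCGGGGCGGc
1700028E10Rik: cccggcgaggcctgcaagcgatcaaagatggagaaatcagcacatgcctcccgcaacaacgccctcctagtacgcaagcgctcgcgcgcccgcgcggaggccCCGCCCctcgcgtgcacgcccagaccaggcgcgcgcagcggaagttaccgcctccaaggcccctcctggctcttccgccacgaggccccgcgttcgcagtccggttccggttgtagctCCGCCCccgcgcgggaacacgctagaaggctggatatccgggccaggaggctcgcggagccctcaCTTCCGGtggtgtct
Usp20: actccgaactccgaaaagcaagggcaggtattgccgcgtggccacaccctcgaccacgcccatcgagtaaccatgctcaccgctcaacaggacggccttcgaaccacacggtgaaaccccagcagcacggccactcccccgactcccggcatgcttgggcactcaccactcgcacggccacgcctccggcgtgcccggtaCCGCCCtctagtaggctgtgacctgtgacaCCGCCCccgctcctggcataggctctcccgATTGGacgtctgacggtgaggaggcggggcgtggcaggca
Hspa5: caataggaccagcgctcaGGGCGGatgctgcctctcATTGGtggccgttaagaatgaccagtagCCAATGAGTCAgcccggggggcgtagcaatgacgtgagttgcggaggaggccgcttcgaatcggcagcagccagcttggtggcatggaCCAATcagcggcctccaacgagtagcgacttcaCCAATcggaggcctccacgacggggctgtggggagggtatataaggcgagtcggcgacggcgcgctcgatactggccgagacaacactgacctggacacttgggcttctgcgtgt
Tmx2: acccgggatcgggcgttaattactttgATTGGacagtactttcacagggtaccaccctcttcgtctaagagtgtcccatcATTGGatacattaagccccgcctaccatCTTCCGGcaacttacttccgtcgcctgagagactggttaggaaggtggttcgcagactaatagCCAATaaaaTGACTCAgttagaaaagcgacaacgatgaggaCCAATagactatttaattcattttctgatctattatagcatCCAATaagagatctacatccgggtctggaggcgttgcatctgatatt

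These windows are chr6:47651255-47651554 (minus strand), chr10:80826406-80826705 (plus), chr5:140830382-140830681 (minus), chr5:151368425-151368724 (plus), chr2:30982029-30982328 (plus), chr2:34771840-34772139 (plus) and chr2:84678125-84678424 (minus), in the order printed. The Tmx2 window held 5 CCAAT boxes and 13 CG dinucleotides, and the Hspa5 window held 4 CCAAT boxes and 25 CG dinucleotides. Gna12 held 2 CCAAT boxes and 7 GGGCGG, some of which share a base, and the 1700028E10Rik window held no CCAAT, 2 GGGCGG and 38 CG dinucleotides. The Gm40371 window held no CCAAT and lies in the spaced regions of chromosome 6 described further down. Among windows prepared but not printed, those of BC005624, Rpl15 and another start of Gm40371 held no CCAAT, and that of Med19 held 5. The BC005624 and Rpl15 windows held 1 and 2 CCGGAAG. Rpl15 and Med19 were, like Hspa5, chosen after values were seen.

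Summit reads and local background were worked back out of the fold enrichment and p that the authors deposited, and reads came out whole (within 0.05) for all members in all 4 libraries. The number of reads, not their source, is what these values give, and whether duplicates were removed is not given in the sources used here. Among gene-end members the median was 458, 448, 451 and 347 reads in siControl replicates 1 and 2 and siChst7 replicates 1 and 2, over a local background of 25.8, 25, 25.9 and 19.6 reads. The lower values of siChst7 replicate 2 appeared in every class of members, and its median over all shared regions was also lowest (52 reads against 61 to 62).

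Most of the gene-end class lay at protein-coding genes. Of the 249, 232 lay at an end of a protein-coding gene and 211 held an annotated start; the table of starts has none on chromosome 18. Oaz1, which encodes the antizyme that controls polyamine synthesis, had 636, 646, 649 and 459 reads in siControl 1 and 2 and siChst7 1 and 2. Gna12, a G-protein alpha subunit, had 571, 543, 497 and 393 reads. Its raw reads, not corrected for depth, were higher in both siControl libraries, while those of Oaz1 overlapped between groups. Hspa5, the main chaperone of the endoplasmic reticulum, had 637, 636, 591 and 466 reads. The shared promoter of Tmx2, a thioredoxin-related membrane protein, and Med19, a Mediator subunit, had 545, 525, 504 and 382. At both, the siControl libraries were higher than the siChst7 libraries in these raw reads, which are not corrected for depth. The share of all shared regions with this order in raw reads was not counted.

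Divergent promoters, regions that hold starts of different genes on opposite strands, were frequent. Among gene-end members with a start, 64 of 211 (30.3%) were divergent, and among all shared regions with a start 1398 of 8853 (15.8%). In the next 500 regions with a start by mean rank the share was 24.4%, and in the weakest 2633 it was 7.48%. The pairs included Ormdl2 with Sarnp, Cct6a (a chaperonin subunit) with Psph (an enzyme of serine synthesis), Derl2 (protein export from the endoplasmic reticulum) with Mis12 (a kinetochore protein) and Mvk with Mmab. The summit lay a median of 99 bp from the nearest start in members and 71.5 bp in other shared regions with a start, and 86.3% and 81.7% lay within 200 bp.

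Of the letters counted by region, CCAAT differed most in percentage points between gene-end members and other regions. It was present in the start windows of 151 of 211 regions (71.6%, Wilson 95% interval 65.1 to 77.2, which covers counting error only) and in 41.9% of the 8633 other shared regions with a start. With strength the share fell step by step: 66.4% in the 500 regions next in mean rank, 60.4% in the following 500, 51.7% in the following 1000, 42.8% and 37.6% in 2 further groups of 2000, and 32.7% in the last 2633. Windows with 2 or more CCAAT boxes made up 44.5% of member regions, 41% of the next 500 and 8.09% of the last group. Members with 3 or more came to 28.9%, against 5.64% of the other regions. Divergent regions have more than 1 window, and without them the shares were 68% in members and 40.6% in other regions.

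**Figure D1:**
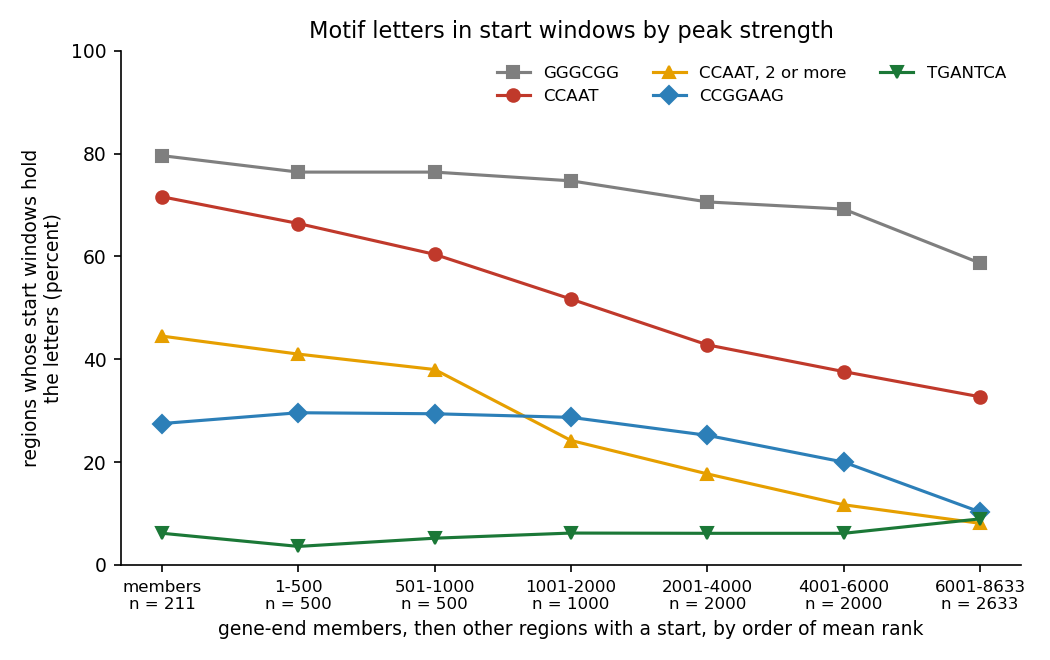
Share of regions (percent) whose start windows of 300 bases hold each letter sequence on either strand, for the 211 gene-end members with a start and for other shared regions with a start in order of mean rank over 4 libraries. CCAAT goes from 71.6% to 32.7%, GGGCGG from 79.6% to 58.7% and CCGGAAG from 27.5% to 10.3%, with 29.6% in the 500 regions next to the members, while TGANTCA stays between 3.6% and 8.96%.

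CCGGAAG was level over the strongest groups (27.5% in members, 29.6%, 29.4% and 28.7% in the next 3) and fell to 10.3% in the last. Counted over single windows, of which neighbouring ones share bases, GGGCGG was in 74.4% of the 301 windows of gene-end members and 65.6% of the 11172 windows in other shared regions, and CCGGAAG in 25.9% and 19.7%. CCAAT was in 68.8% and 38.8% of these windows and in 37.4% of all 32851 windows of the table, so its share in weaker accessible promoters was close to that in the whole table. TGANTCA (5.32% and 5.81%), TGACGTCA (2.99% and 3.54%), GCATGCGC (5.32% and 5.92%), GGAATG, the TEAD letters (14% and 11.9%), AGATAA, the GATA letters (3.99% and 5.42%), and TAAAAATA, the MEF2 letters (0.664% and 1.27%), were near each other in the 2 sets. Median GC content was 61.3% in both, and the median number of CG dinucleotides was 23 and 21. CCAAT boxes of members were centred a median of 91 bases before the start (position -91), and those of other regions at -83.

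The members with the most CCAAT boxes were named by their windows. Windows with 5 or more were those of Med19 and Tmx2, Ormdl2 and Sarnp, Atp5b (the beta subunit of ATP synthase), Prr11 and Ska2 (mitotic spindle attachment), Atp5g1 (a ring subunit of ATP synthase), Mmab and Mvk, 3110056K07Rik, Derl2 and Mis12, Eif2ak3 (the stress sensor PERK), Dnajb11 (a co-chaperone of Hspa5), Ppp2r5d (a phosphatase subunit) and Tubb4b (a tubulin). These names were taken after the counts were seen.

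The listed genes of the cell identity programmes were absent from the gene-end members. None of the 26 fibroblast genes, 27 cardiac genes, 19 AP-1 and immediate early genes, 13 YAP and TEAD genes, 21 cytoskeleton genes, 16 TGF-beta genes, 23 glycosaminoglycan genes, 14 housekeeping genes, 6 matched histone genes and 13 genes of other cell types on the lists used had a member within 1 kb of an end. Single genes did so on 3 lists: Cdk1, the kinase of mitotic entry (1 of 17), Eef2, the elongation factor of translation (1 of 20), and Vaultrc5, a vault RNA (1 of 15 matched). Members also lay at ends of the ribosomal protein genes Rps21, Rpl15 and Rpl27, which were not on the list of ribosomal protein and translation genes. Over all protein-coding genes 299 of 21631 (1.38%) had one, so few would be found on lists of this size at that share. A region called in all 4 libraries lay within 1 kb of an end for 19 of the 26 fibroblast genes (73.1%) and 9 of the 27 cardiac genes (33.3%), against 11908 of all 21631 protein-coding genes (55.1%).

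The Cdk1 region had 409, 403, 427 and 299 reads in siControl 1 and 2 and siChst7 1 and 2. The region at an end of Eef2 had 606, 605, 622 and 453, and it held an annotated start of Dapk3 but none of Eef2. Vaultrc5 had 412, 358, 356 and 274. The scRNA gene Rn7s2, the RNA of the signal recognition particle transcribed by RNA polymerase III, had 472, 496, 489 and 362. The groups overlapped at Rn7s2, Cdk1 and Eef2. At Vaultrc5 both siControl libraries were higher in raw reads, which are not corrected for depth.

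The regions of the study's own genes were called in all 4 libraries but were not members. The best region at Chst7, the siRNA target, ranked 5634, 9096, 10655 and 10357 in siControl 1 and 2 and siChst7 1 and 2, with 192, 152, 141 and 110 reads. Accessibility at a gene is no measure of its RNA, so this does not check the knockdown. The best regions ranked between 1720 and 3877 at Tbx5, 12019 and 14811 at Mef2c, 11148 and 17445 at Gata4, and 17500 and 20827 at Myh6. Whether reads from the inducible MGT or from the Myh6-named reporter add to these regions was not tested. Of 10 fibroblast markers 7 and of 7 cardiac markers 3 had a shared region at a gene end, beside 3 of 3 for smooth muscle, 1 of 3 each for immune cells and epithelium and 0 of 3 for endothelium. The share over all protein-coding genes was the 55.1% given above, and counts this small do not set the cell types apart from it. None of these markers was at a member.

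The tallest members did not look like promoters. In all 4 libraries the first rank was held by chr2:98666248-98667313, 35.3 kb from the nearest gene end (Gm33780), with 10411, 9908, 10909 and 9699 reads over a local background of 544, 515, 584 and 496. The second was chr9:123461793-123462197 0.478 kb from an end of Lars2, inside the gene, the mitochondrial leucyl-tRNA synthetase, with 3639, 3703, 3632 and 2997 reads. These are many times the median of the gene-end class, and the order of libraries differed: the chromosome 2 region was highest in siChst7 1.

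**Figure D2:**
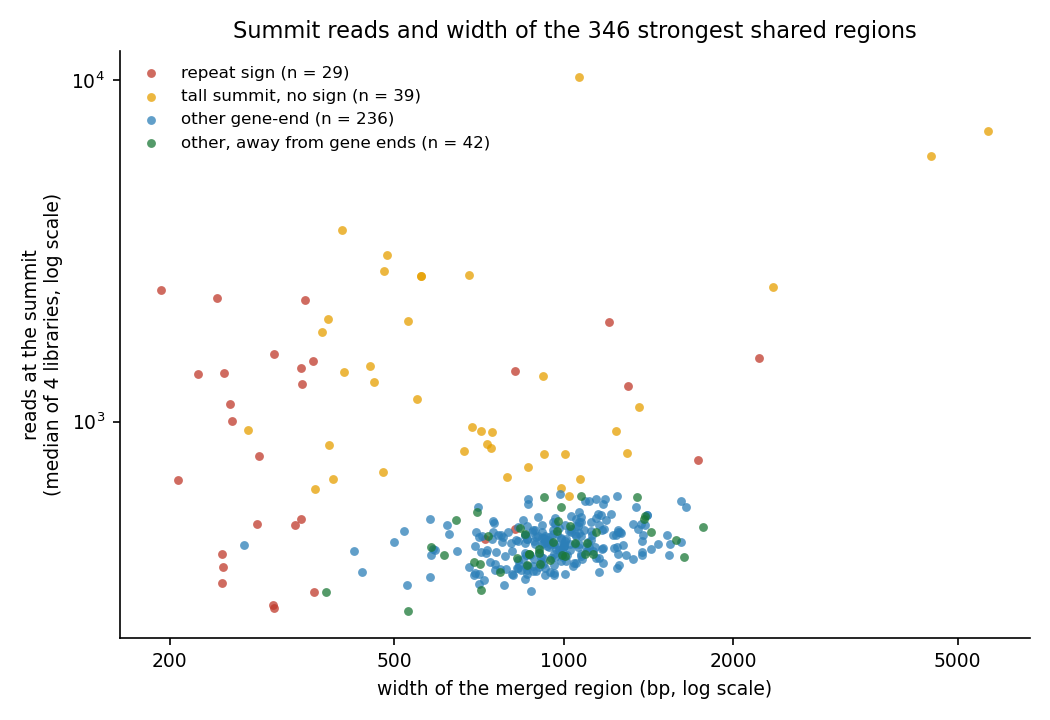
Width of each merged region (bp, log scale) against reads at the summit (median of 4 libraries, log scale) for the 346 members, coloured by kind. Most gene-end members form a compact group around 961.5 bp. Members with a sign or a tall summit spread towards narrow and tall shapes, up to a width of 5667 bp. Narrowness and summit reads were part of how these were defined.

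The 10 highest of the members with a sign were chr6:103649049-103649291 in Chl1, chr12:97061434-97061780, chr12:78350869-78351174 in Gphn, chr12:120028663-120029021 near Tmem196, chr17:70963650-70963899, chr8:15519778-15520119, chr12:3109873-3110096, chr2:5379041-5379383 in Camk1d, chr9:3023460-3024662 and chr6:3200771-3201590. The Chl1 region, inside a cell adhesion gene of neurons and 243 bp wide, had 2310, 2303, 2366 and 2116 reads and the fold enrichment was 49.4, 49.6, 47.9 and 48.5. All 4 summits of that region fell on the same base. The Gphn region, in the gene of the synaptic scaffold gephyrin, had 1592, 1599, 1552 and 1254 reads. Members of this class had a median width of 306 bp, against 962 bp at gene ends and 924 bp over all members. Since 22 of the 29 were classed by narrowness, this difference follows largely from the definition. Their median was 1051, 1072, 963 and 808 reads. Of the 29, 9 lay over an annotated gene and none held an annotated start.

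Among the 68 members away from gene ends, the 10 highest were as tall. Beside the first region of chromosome 2 they were chr3:5860339-5860823, chr16:57391128-57391686 in Cmss1 and Filip1l, chr14:124801559-124802237, chr11:109011642-109012120, chr9:35305219-35305591, chr7:145340928-145341456, chr5:146260984-146261365 in Cdk8, chr14:19416891-19419241 and chr18:90602183-90602635. Their reads ran from 1539 to 10411 in siControl 1 and from 1072 to 9699 in siChst7 2. Narrow meant at most 360 to 378 bp by library. A further measure was added after the data were seen: a tall summit, with more reads in every library than 99.9% of shared regions that hold a start of a protein-coding gene (601, 581, 591 and 455 reads).

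Of the 346 members 57 had a tall summit: 18 of those with a sign, 26 of those away from gene ends and 13 at gene ends. The signs were applied only away from gene ends. Counted so, 68 members had a sign or a tall summit, and 278 had neither. At gene ends the shape of 3 members met a sign without being counted: Wls and Sspn were narrow, with peaks of 269 to 275 bp and 264 to 268 bp, and Lars2 met the height limit in every library. Sspn had no tall summit, so 277 members had neither feature wherever they lay. The first 47 members by mean rank all had a counted sign or a tall summit. A tall summit is a cut on reads, with which −log10 q rises, so this follows in part from the measure. All 57 shared regions with a tall summit were members. The 26 tall members away from gene ends had a median width of 553.5 bp and a median summit spread of 1 bp over the 4 libraries. By contrast the 42 other members away from gene ends had median widths near that of gene-end members. The median was 902 bp in the 9 with an annotated start inside (Pfkfb4, Ddx50, Cmtr2, Rfx1, Mrtfb, Kctd7, Nktr, Rab21 and Stk25) and 947 bp in the 33 without one. Widths of the 33 ran from 378 to 1769 bp. The narrowest, chrX:170880924-170881301, was close to the narrow limits. Its fold enrichment was 38.4 and 37.7 in siControl 1 and 2 and 37.6 and 34.8 in siChst7 1 and 2. Over all shared regions the median spread of summits was 59 bp, and over the 278 members with neither feature 12.5 bp.

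Of the 10 highest gene-end members 9 had a tall summit, and Sspn, with a fold enrichment of 32.5, 33.4, 30.5 and 31.7, was narrow. After Lars2 they were chr17:39843057-39848723 over Rn18s-rs5, chr8:19784345-19785261 over Gm10060, chr1:24611631-24616118 over Gm10222 and Gm10925, chr3:159939405-159939679 near Wls, chr8:20423930-20425169 over Gm20584, chr8:20549894-20550686 near Gm40469, chr6:47739626-47740289 near Gm52861, chr6:47650585-47651588 over Gm40371, and chr6:145932757-145933027 in Sspn. Rn18s-rs5 is annotated as a pseudogene and named for 18S ribosomal RNA, and its region had 7160, 6991, 7206 and 5615 reads at a fold enrichment of 3.12, 3.18, 3.16 and 3.06, with a local background of 2297, 2198, 2281 and 1837. Gm10925 carries a mitochondrial gene name among its synonyms, and its region had 6585, 6289, 5702 and 4644 reads at a local background of 2217, 2138, 1952 and 1598. Both met none of the signs and count as gene-end members. The remaining tall members of the class included the promoters of Oaz1, BC005624 and Usp20, and Gm20605 and Lrch4.

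For comparison, each library had 4 peaks on the mitochondrial genome, which was not ranked. Their summits held 7849 to 8735 reads in siControl 1, 7709 to 8403 in siControl 2, 7012 to 7753 in siChst7 1 and 5834 to 6525 in siChst7 2. Fold enrichment there was between 1.41 and 2.24.

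Several members lay in series of called regions. On chromosome 6, around Rn4.5s, the gene annotated for the small 4.5S RNA that exists in tandem repeats in mice and rats, 6 members lay close together. Runs of shared regions there had steps of 4.25 to 4.36 kb, with wider and narrower steps between and beside the runs. Summits of the members at chr6:47739626-47740289, chr6:47743874-47744620, chr6:47748219-47748961 and chr6:47752585-47753297 stood 4.25, 4.36 and 4.33 kb apart, and had 876, 1016, 916 and 1020 reads in siControl 1 and 674, 732, 688 and 812 in siChst7 2. The 8 regions from chr6:47654806-47655264 to chr6:47685070-47685577 held 282 to 418 reads in siControl 1 and were no members.

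On the X chromosome, 3 of the 6 X-linked members lay in 4933407K13Rik, a long noncoding RNA gene at the Dxz4 macrosatellite, known as the hinge between the large folded domains of the inactive X. They were chrX:75733790-75735137, chrX:75744342-75745205 and chrX:75749550-75750937. Reads of the middle one were 729, 754, 748 and 561. The first had 625, 653, 579 and 452, and the last 536, 525, 511 and 435. The 5 other regions called there in 4 libraries had 46 to 148 reads, so the 3 members stood well above them. The other X-linked members were a narrow region 80.1 kb from Asmt with 563, 519, 518 and 381 reads, one 203 kb from Asmt with 357, 299, 336 and 244, and one 6.94 kb from Mid1 with 442, 481, 495 and 375.

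**Figure D3:**
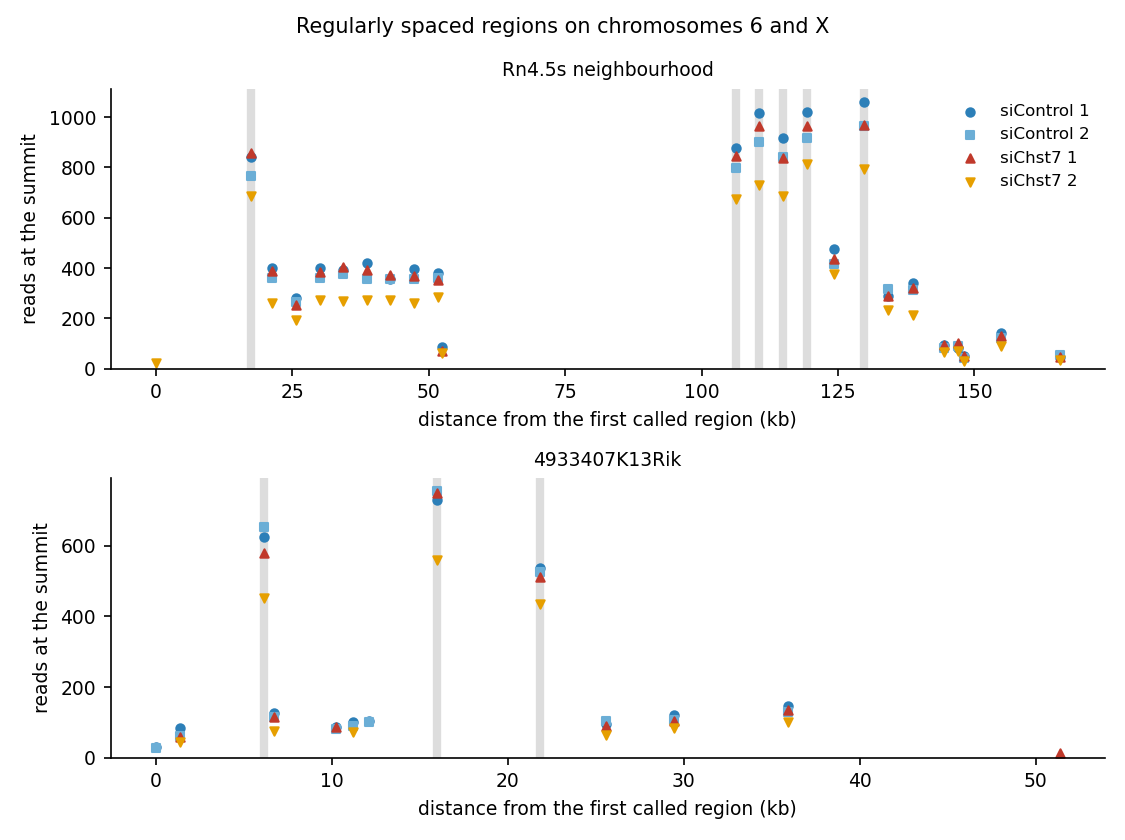
Reads at the summit in each of the 4 libraries against distance (kb) from the first called region, for the neighbourhood of Rn4.5s on chromosome 6 (top) and 4933407K13Rik on X (bottom); grey bands mark members. Runs of regions on chromosome 6 have steps of 4.25 to 4.36 kb, other steps there range from 0.791 to 53.9 kb, and the 3 members on X stand above their neighbours.

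Other close groups away from gene ends were 3 regions at the start of chromosome 9 (chr9:3000076-3002294, chr9:3006369-3007667 and chr9:3023460-3024662), 3 around the first region of chromosome 2, 2 in Myo3a (chr2:22587566-22588296 and chr2:22588821-22590179) and 2 on chromosome 14 (chr14:19415717-19416265 and chr14:19416891-19419241). At chromosome 9 the reads were 1591, 1486, 1702 and 1488 in the first, 1306, 1228, 1397 and 1198 in the second and 2038, 1886, 2129 and 1841 in the third. Here siChst7 1 was highest each time.

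The 33 members away from gene ends with no start, sign or tall summit were what was left as possible enhancers, and 17 lay over a protein-coding gene. They also include 4 of the X-linked members, among them regions in 4933407K13Rik and the narrow chrX:170880924-170881301. The highest was chr2:131304599-131305522 in Rnf24, with 589, 618, 654 and 499 reads. A region in Hmga2, a chromatin factor of growing embryonic cells, had 514, 545, 544 and 417 reads. One in Fmn1, a formin that nucleates actin, had 615, 601, 624 and 455, and one 12.5 kb from Actb, the gene of cytoplasmic actin, had 409, 375, 405 and 382. The last ranked 311, 427, 296 and 85, so siChst7 2 alone placed it among its first 100. Others included regions in Bicdl1, Eif3b, Rbks, Arhgap24, Rtkn2, Smyd3, Tasp1, Abtb2, Hip1, Mad1l1, Vps37b, Atp1a4 and Sorcs2. Of the 33, 13 were on chromosome 5. Whether any acts as an enhancer was not tested.

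Members within 100 kb of a listed gene, other than those above, were named by distance. The share of all genes with a member within 100 kb was not computed, so no excess near listed genes can be read from these names. Near cytoskeleton genes there were members 12.8 kb from Tuba1b, 31.2 kb from Tuba1a, 36.2 kb from Tuba1c, 86.3 kb from Myh9 and 95.8 kb from Cnn1. Near cell cycle genes there were members 36.5 kb from Pcna and 64.7 kb from Cdk6. Near glycosaminoglycan genes, the family of Chst7, members lay 8.65 kb from Chpf2 (at the Abcf2 promoter) and 65.9 kb from Chst12 (in Eif3b). Single members lay 80.7 kb from the calcium pump gene Atp2a2, 59.9 kb from Jund, 48.6 kb from Sparc, 88.8 kb from Rplp0 and 91.6 kb from Sox10. The array on chromosome 6 lay 24.4 to 47.8 kb from Rny1 and 17.9 to 41.3 kb from Rny3, both genes of small Y RNAs. The member near Jund lay at an end of Mpv17l2, and that near Sparc at an end of G3bp1.

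Members were spread unevenly over chromosomes. Chromosome 5 held 69 of the 346 (19.9%, Wilson 95% interval 16.1 to 24.5) and 6.97% of the shared regions, chromosome 2 held 44 (12.7% against 8.45%) and chromosome 10 held 33 (9.54% against 5.75%). Chromosome 7 held 3 members and chromosome 4 none, against 3080 and 3043 shared regions; 0 of 346 allows a share of up to 0.867%. The same was seen in each library, with 85, 91, 91 and 95 of the top 500 peaks on chromosome 5 in siControl 1 and 2 and siChst7 1 and 2, and 2, 1, 2 and 0 on chromosome 4. Of the gene-end regions called in all 4 libraries, 5.19% were members on chromosome 5, 3.53% on chromosome 10, 0.194% on chromosome 7 and 0 on chromosome 4.

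Chromosome 5 also had higher summits and background than chromosome 4 outside the members. Among shared regions that were not members and held a coding start, the median was 204.5, 202, 200.5 and 153.5 reads on chromosome 5 and 151, 153, 146 and 114 on chromosome 4, and the median local background was 15.9, 15, 16.2 and 12 against 11.1, 10.9, 11.3 and 8.29. Over other chromosomes the number of members followed these medians only in part. In siControl 1 the highest median was 222 reads on chromosome 10, which held 33 members, and the lowest 119.5 on X, which held 6. The median was 179.5 reads on chromosome 2, which held 44 members, 203 on chromosome 17, which held 17, and 146 on chromosome 3, which held 4. When peaks were ranked by fold enrichment, which divides by the local background, 231 regions had a top-500 peak in each library, 13 of them (5.63%) on chromosome 5 and 6 (2.6%) on chromosome 4. The part of the background in the uneven numbers was not tested further, and the labels name no karyotype for the line.

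**Figure D4:**
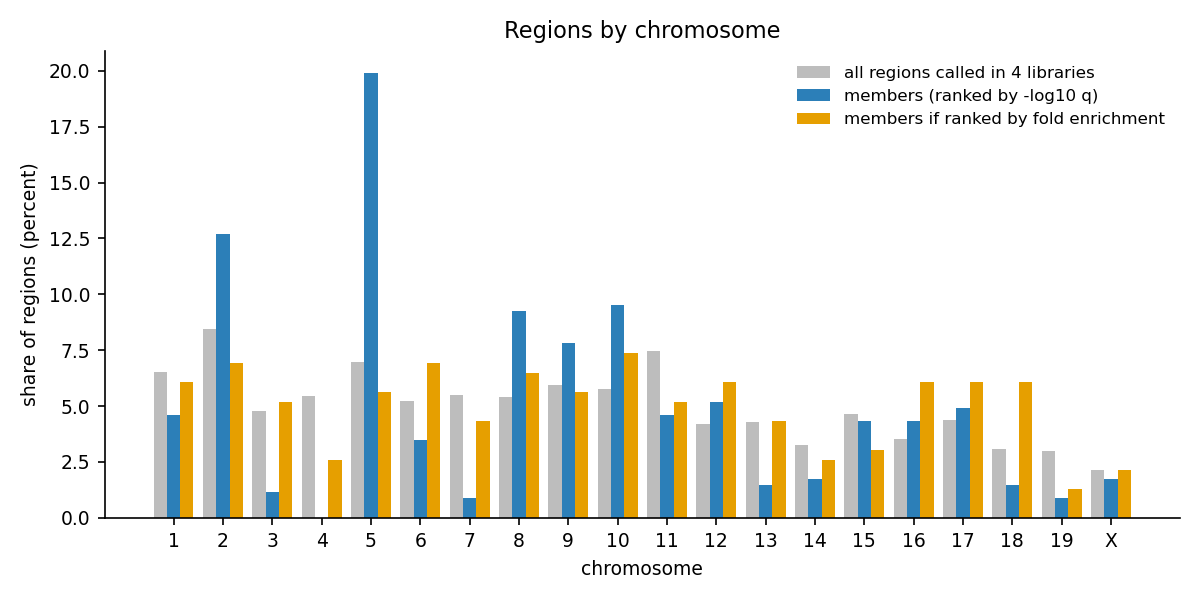
Share (percent) of all regions called in the 4 libraries, of the 346 members and of the 231 regions found when ranking by fold enrichment, by chromosome. Chromosome 5 holds 19.9% of members, 6.97% of shared regions and 5.63% under the fold ranking.

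Control and Chst7 siRNA libraries were compared by rank. Ranks among the 55907 shared regions were better in both siChst7 than in both siControl libraries for 55 members (15.9%) and in the reverse direction for 65 (18.8%). Over all shared regions 20.2% were better in both siChst7 and 20.2% in both siControl libraries, so neither share of members was above the background. With 2 against 2 libraries an exact two-sided permutation test cannot give a p under 0.333, and none is given. By the authors' fold enrichment 15 members (4.34%) were higher in both siChst7 and 140 (40.5%) in both siControl libraries, against 11.2% and 29.8% of shared regions. That value falls with the local background and depends on each library's depth.

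Reads at the summit were also divided by the median of the library's shared regions. Members reached a median of 7.64 and 7.48 times that level in siControl 1 and 2 and 7.44 and 6.88 in siChst7 1 and 2. The ratio of the siChst7 to the siControl mean had a median of 0.947 over members, from 0.766 to 1.12, and 0.967 over the 49378 shared regions with whole reads in every library, where the middle 90% ran from 0.769 to 1.29. The members thus varied less than shared regions in general, which have fewer reads each. The lowest ratios were 0.766 at chr18:40308031-40308318, 0.797 in Eif3b, 0.827 at chr14:104715776-104716080 and 0.828 in both Myo3a regions. In Eif3b the relative reads were 8.94 and 9.89 in siControl and 7.58 and 7.42 in siChst7. They did not overlap, but the region was picked for its low ratio, so this follows in part from the choice.

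The highest ratios belonged to the chromosome 9 series (1.12, 1.11 and 1.09) and the first region of chromosome 2 (1.1), with 1.09 for the region near Actb. At chr9:3000076-3002294 the relative reads were 25.7 and 24.4 in siControl and 27.5 and 28.6 in siChst7. At the first region of chromosome 2 they were 168, 162, 176 and 187. The groups did not overlap at either. The gap was wider than the spread within either group at the former, and narrower than the spread of the siChst7 pair at the latter. Both were picked for their high ratio among the members, so the lack of overlap follows in part from the choice. The share of all shared regions without overlap in relative reads was not counted. The mitochondrial peaks had ratios from 0.876 to 0.925 and the Gm10925 region 0.866, with relative reads of 106 and 103 against 92 and 89.3. The Rn18s-rs5 region was at 0.974. The part of library depth or preparation in these ratios was not tested.

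**Figure D5:**
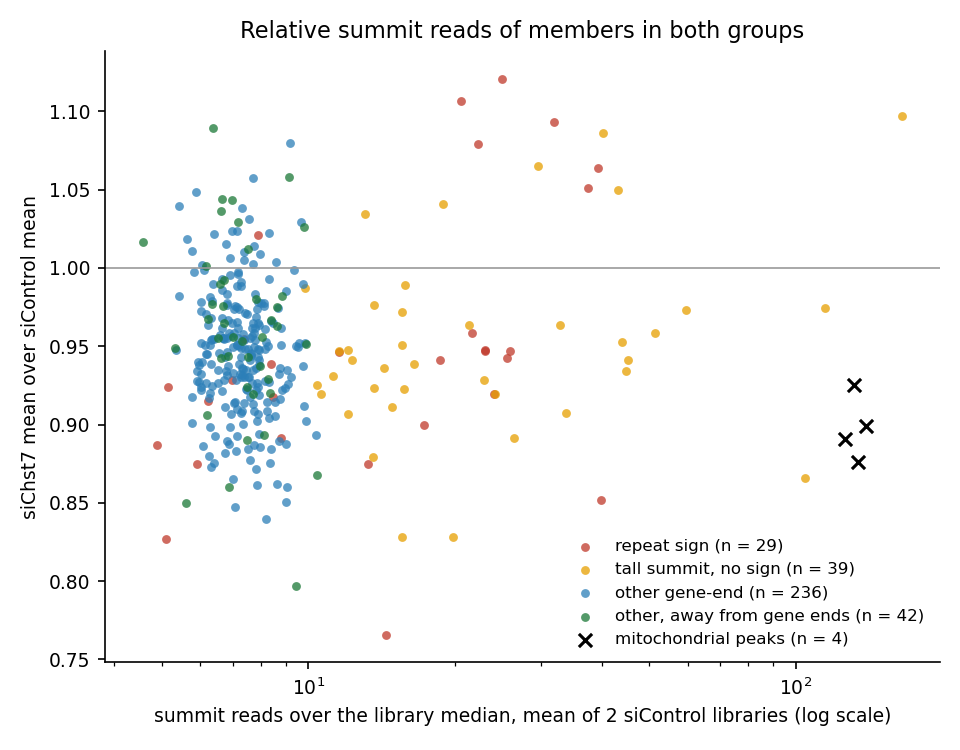
Summit reads divided by the library median in siControl (mean of 2 libraries, log scale) against the ratio of the siChst7 mean to the siControl mean, for 346 members and 4 mitochondrial peaks. Most members lie between 0.872 and 1.04; the mitochondrial peaks lie at 0.876 to 0.925.

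At the limit of the rule the values ran on without a step. The members just inside, by the worst of their 4 ranks, were Usp36 (500), the shared promoter of Zswim3 and Acot8 (499), Lamtor4 (497), Cand1 (497), and Mettl25 with Ccdc59 (496). Just outside were Hint3 (501), a region at Derl1 (504), Mapre1 (505), the region at Rpl37 and Card6 (505) and Ptp4a1 (507). The 500th peak had a −log10 q of 312, 309, 301 and 237 in siControl 1 and 2 and siChst7 1 and 2.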

How the data were processed

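Bulk ATAC-seq peak lists of 4 libraries (2 siControl, 2 siChst7) were used. Per the submitters' processing notes, Bowtie, SAMtools, MACS3, bedtools and HOMER were used with the build mm10; versions, duplicate removal, exclusion lists and mitochondrial filtering: not given in the sources used here. Peaks were called per library, as each deposited list belongs to 1 library. The authors deposited a fold enrichment (a ratio), a −log10 p and a −log10 q for each summit; the deposited score is close to 10 times the −log10 q, and the deposited summit offset gave summit positions. These per-peak values are the authors'; they were used to describe and rank peaks within a list.

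Peaks on chromosomes 1 to 19 and X were ranked by −log10 q, merged at 1 bp overlap, and classed by distance to gene ends (RefSeq genes, GRCm38.p6) and by the signs described in the report. Reads at the summit (k) and local background (λ) were solved from fold = (k + 1)/(λ + 1) and the Poisson p; 82.8% to 90.2% of all peaks and all members gave whole reads within 0.05. The merging and the solving of reads were tested on simulated data, whose p came from the same Poisson formula. The simulated local backgrounds lay below those of Rn18s-rs5, Gm10925 and the mitochondrial peaks, and the simulated folds below that of Chl1. Total reads are unknown. Separate cultures are not stated for the replicates, which the labels call biological. No test was made between groups. The labels number the replicates and state no pairing. Deviations from the group means had a correlation of 0.0226 between libraries of the same number, over 49378 regions. These deviations also hold counting noise, so a low value cannot exclude a shared batch.

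The 10 highest members of each class, 5 on either side of the limit, members near genes of 13 lists (230 of 238 genes matched) and on X, and regions of 5 genes of the study were named by rule. The members and lists were chosen with earlier results of these data known. Alternatives changed the number of top peaks, the ranking value, the merging, the libraries, the gene-end window and the signs. Python 3.11.15 with numpy 2.4.6, pandas 2.3.3, scipy 1.17.1 and matplotlib 3.10.9 was used.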

Additional observations from a re-analysis of the deposited data

How the results depend on the processing

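Of 113 recomputed values 80 stayed within 1.5 times the reported count, or within the interval or library spread for shares and widths. With the top 250 peaks there were 178 members, 111 at gene ends and 41 away, 31 and 33 ranked higher in both siChst7 and both siControl libraries, and a median width of 901 bp; with the top 1000 these were 674, 508, 135, 101, 131 and 963.5 bp. Ranked by fold enrichment, 103 members were at gene ends and 37 ranked higher in both siControl libraries, the median width was 636 bp, CCAAT stood in 61.4% and chromosome 5 held 5.63%; 65 of the reported members remained, 18.8% of them and 28.1% of that list. Ranked by reads at the summit (added after seeing the data) the median width was 1016.5 bp. The height sign alone gave 5 members and the first-peak sign alone 8, and adding tall summits (after seeing the data) gave 68 with signs and 42 away. With fold enrichment in place of the rank, 15 and 140 members were higher in both siChst7 and both siControl libraries. With a replicate block (higher within both replicate numbers) these counts were 81 and 97, or 23.4% and 28% of members against 27.9% and 28.2% of shared regions. Leaving out any 1 of the 4 libraries gave 106 to 118 and 118 to 148 members ranked higher in siChst7 and siControl, where fewer libraries have to be ordered: 28.7% to 31.9% and 32% to 40.3% of members, against 34.3% to 36.1% and 34.4% to 36.1% of shared regions, the 40.3% without siChst7 replicate 1. The median width was then 904 to 924 bp. Summit windows of fixed width give no median width. Depth is known only relative to other regions, siChst7 replicate 2 is shallowest, and without a genome sequence repeats and mitochondrial copies could not be matched.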
